A study of Homo sapiens with 6 samples.

Results

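The mRNAs of 10 inflammatory cytokine and chemokine genes were followed in K562 cells with and without induced PCBP1: IL6, LIF and OSM of the interleukin-6 family, the CXC chemokines CXCL8, CXCL1, CXCL2 and CXCL3, and TNF, IL1B and CSF1. They were picked by gene symbol from 62252 annotated genes, with earlier results of these data known. Their counts and abundances were summed over transcripts. IL6, CXCL8, CXCL2 and CXCL3 mRNA fell in the 3 +Dox libraries against the 3 −Dox libraries, to levels between 4.6-fold lower for IL6 and 1.88-fold lower for CXCL3, and LIF mRNA fell 3.12-fold with less certainty. CXCL1 and CSF1 did not pass the test. OSM, TNF and IL1B had at most 15 counts in any library and were not tested.

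K562 cells come from a human chronic myeloid leukemia and have red cell and megakaryocyte features. Both groups were the same stable line. Its parent, K562 flox, was a single clone, and the line made from it by exchanging a Dox-inducible Flag-PCBP1 cassette into the AAVS1 safe-harbor site was polyclonal and kept under puromycin. The −Dox group (labelled control) had no doxycycline and the +Dox group (labelled as PCBP1 overexpression) had it, so Dox itself and Flag-PCBP1 cannot be told apart, and the dose and time of Dox for these libraries are not stated in the sources used here. PolyA RNA was sequenced from 3 samples of each group, and nothing in the labels says whether the replicates were grown on separate days, so the p-values measure the spread between these libraries. The depth, as the sum of estimated counts, was 84177316, 80104627 and 74766040 for replicates 1 to 3 of −Dox. For replicates 1 to 3 of +Dox it was 70905656, 82263502 and 82449808.

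PCBP1, an RNA-binding protein with a preference for C-rich sequence, checked the labels. Its counts were 20944, 20992 and 19936 in −Dox and 73062, 79189 and 84219 in +Dox, a 3.83-fold difference with no overlap. The line carried its own markers, with HBG2, a fetal globin gene, at a mean of 9890 TPM (abundance per transcript length, with the same sum in each library) over the 6 libraries.

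Inflammatory cytokines are secreted signals made in short bursts, mostly by myeloid, endothelial and stromal cells. IL-6, LIF and OSM signal through receptors that share the IL6ST (gp130) chain, and the CXC chemokines with an ELR motif (CXCL8 and CXCL1 to CXCL3) draw neutrophils through CXCR1 and CXCR2. Transcription of these genes is driven largely by NF-κB, AP-1 and C/EBP factors, and their mRNAs are typically kept short-lived by AU-rich elements in the 3′ UTR that bind decay factors such as ZFP36.

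The promoters are shown first because IL6, CXCL8 and the other CXC chemokine genes share a letter pattern there. RefSeq promoter sequences on GRCh38.p14, from 250 bases before to 50 bases after the start site, were found for 7 of the 10 genes. The pattern GGNNTTTCC, one form of the NF-κB site, was on one strand or the other of 5 of these 7, against 6.26% of 35116 promoters of the same length. The AP-1 pattern TGANTCA was in 1 of the 7 (CXCL8), against 7.71% of the promoters. The promoters of TNF and IL1B held neither pattern. A match is a description of letters and not a measured binding site. The 150 bases before the start are given for the 5 promoters with a match, 5′ to 3′ on the strand of the gene, with the matches in capitals.
IL6, chr7:22727050-22727199, plus strand: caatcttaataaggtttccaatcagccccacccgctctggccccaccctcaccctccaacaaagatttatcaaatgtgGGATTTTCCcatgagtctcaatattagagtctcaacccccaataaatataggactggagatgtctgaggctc
CXCL8, chr4:73740419-73740568, plus strand: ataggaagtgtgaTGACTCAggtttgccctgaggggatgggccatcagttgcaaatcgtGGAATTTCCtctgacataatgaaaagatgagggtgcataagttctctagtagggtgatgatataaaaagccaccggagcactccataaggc
CXCL2, chr4:74099196-74099345, minus strand: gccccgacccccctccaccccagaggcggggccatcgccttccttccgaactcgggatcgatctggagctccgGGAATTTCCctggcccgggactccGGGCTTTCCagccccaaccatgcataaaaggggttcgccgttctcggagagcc
CXCL3, chr4:74038690-74038839, minus strand: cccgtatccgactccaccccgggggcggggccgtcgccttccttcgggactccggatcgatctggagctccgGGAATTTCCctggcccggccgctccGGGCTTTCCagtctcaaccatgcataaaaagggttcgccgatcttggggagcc
CXCL1, chr4:73869243-73869392, plus strand: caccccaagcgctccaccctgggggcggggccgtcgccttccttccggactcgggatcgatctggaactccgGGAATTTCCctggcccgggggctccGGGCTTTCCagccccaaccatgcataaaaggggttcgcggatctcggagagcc

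In IL6 the match starts 72 bases before the start site, and in CXCL8 the matches start at 137 (TGANTCA) and 91 bases before it. CXCL1, CXCL2 and CXCL3 each hold 2 matches of GGNNTTTCC, the second of them at 53 bases before the start in all 3 genes. Over the 300 bases the CXCL1 promoter was 82.5% identical to that of CXCL3 and 71.9% identical to that of CXCL2. The levels of the 3 mRNAs in −Dox were 0.176 TPM for CXCL1, 3.41 TPM for CXCL2 and 3.98 TPM for CXCL3. A relation between promoter sequence and level was not tested.

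The 3′ ends were read for ATTTA, the core of an AU-rich element. All 10 genes had at least 4 copies in the annotated 3′ UTR, as did 35.5% of 18463 genes with an annotated 3′ UTR, a count that also grows with length (425 bases in IL6 to 3198 in LIF, beside a median of 1119 over all genes). The nonamer ATTTATTTA was present in 5 of the 10 (CXCL8, CXCL1, CXCL2, TNF and IL1B), against 7.3% of genes. The density was 14.1 copies of ATTTA per kb in IL6, 14 in CXCL2, 10.4 in CXCL3 and 7.19 in CXCL8. It was 11.3 in TNF, 9.84 in IL1B, 7.77 in CXCL1 and 4.74 in OSM, beside a median of 1.59 over all genes. LIF (2.19 per kb) and CSF1 (1.86 per kb) were near that median, as 60.1% and 54.5% of genes had a lower density. For 8 of the genes, the 30 bases of the 3′ UTR with the most copies are given, as RNA-sense DNA letters of GRCh38 with ATTTA in capitals.
IL6, chr7:22731697-22731726, plus strand: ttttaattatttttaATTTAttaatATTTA
CXCL8, chr4:73743108-73743137, plus strand: taacctATTTAttATTTAtgtATTTATTTA
CXCL2, chr4:74097590-74097619, minus strand: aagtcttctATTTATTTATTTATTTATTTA
CXCL3, chr4:74037090-74037119, minus strand: ttacgagggttctacttATTTAtgtATTTA
CXCL1, chr4:73870665-73870694, plus strand: cttaggagaagtcttctATTTATTTATTTA
LIF, chr22:30240522-30240551, minus strand: ATTTAttcaatgtcatATTTAaaatATTTA
TNF, chr6:31577999-31578028, plus strand: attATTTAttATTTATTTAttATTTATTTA
CSF1, chr1:109930911-109930940, plus strand: tttatataaagtcATTTAaatatctATTTA

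The C content of these 3′ UTRs, the base that PCBP1 prefers, was on the low side for IL6 (12%), CXCL8 (13.2%), CXCL3 (13.7%), CXCL2 (14.1%) and CXCL1 (15.0%), beside a median of 21.0% over all genes. It was 22.3% in IL1B, 25.4% in TNF, 26.9% in LIF, 28.2% in OSM and 30.7% in CSF1. No relation between C content and the change in level was tested.

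Per length, the 10 genes were of low abundance. In −Dox the order of levels was CXCL3 (3.98 ± 0.43 TPM, SD, n = 3), CXCL8 (3.60 ± 1.5), CXCL2 (3.41 ± 0.778), IL6 (3.09 ± 0.504) and CSF1 (2.07 ± 0.543), and each of these overlapped its neighbour in the order. The order depended on transcripts that are not annotated as protein_coding, since without them it was CXCL8 (3.24 TPM), IL6 (2.78), CXCL3 (2.02), CSF1 (2.01) and CXCL2 (1.96). A gap followed, to LIF (0.183 ± 0.077 TPM) and CXCL1 (0.176 ± 0.0326 TPM), and IL1B, TNF and OSM lay below 0.1 TPM. Of all annotated genes, 15.9% had a higher mean TPM in −Dox than CXCL3. The 10 genes together took 1458, 1655 and 1753 counts in the −Dox libraries and 702, 847 and 804 in the +Dox libraries. Since each culture was measured in bulk, fewer cells that make an mRNA and less of it per cell cannot be told apart.

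The comparison used the quasi-likelihood test of edgeR on the 21045 genes whose mean count exceeded 10, two-sided, with Benjamini-Hochberg adjustment over all of them. A gene passed at an adjusted p under 0.05, and was a DEG (differentially expressed gene) if the log2 fold change was also above 1 in size. Of the 10 genes 7 were tested and 5 passed, all lower in +Dox, beside 7.68% of all genes tested that passed as lower. The 10 genes were chosen with earlier results of these data known, so the counts here are descriptions and not a test of the set. DEGs were 4 of the 7 (IL6, CXCL8, LIF and CXCL2), beside 0.727% of all genes that were DEGs and lower and 0.737% that were DEGs and higher. In 6 of the 7 the groups did not overlap, with all −Dox libraries the higher in CPM (counts scaled to library size by TMM), beside 15.8% of all genes. The median log2 fold change of the 7 was −1.24, beside 0.006 over all genes. Each of the 7 had a mean count above 10 in the +Dox libraries alone, so none was tested only through its level in −Dox. With 3 libraries against 3, an exact permutation test of a single gene cannot give a p below 0.1.

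**Figure D1:**
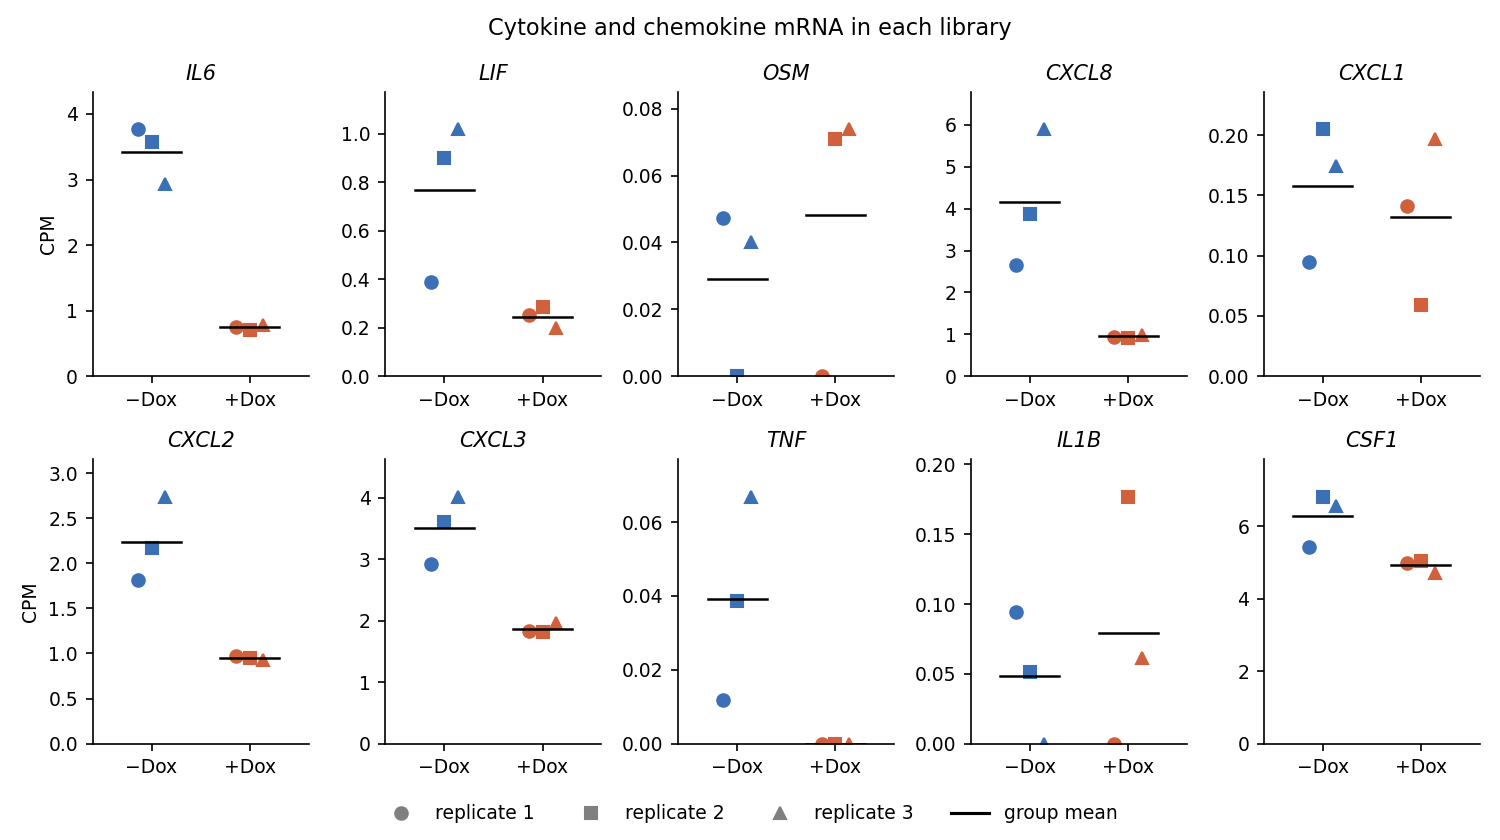
CPM of each of the 10 genes (vertical axis, its own scale in each panel, from 0) in −Dox and +Dox libraries, 1 point per library and a line at the group mean. The +Dox points of IL6, CXCL8, CXCL2 and CXCL3 lie close together and below every −Dox point, while those of CXCL1, OSM and IL1B overlap the −Dox points.

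IL6, the ligand of the IL-6 receptor and a driver of the acute phase response, is on chromosome 7 of GRCh38 from 22725884 to 22732002, plus strand. It had 319, 279 and 219 counts in −Dox replicates 1 to 3 and 53, 59 and 64 in +Dox replicates 1 to 3. The lowest −Dox library was 3.72-fold above the highest +Dox library. The mean was 3.43 ± 0.44 CPM in −Dox and 0.744 ± 0.0454 CPM in +Dox (SD, n = 3), a log2 fold change of −2.20 (SE 0.18, edgeR adjusted p = 7.15e-06). It ranked 79 by p among all genes tested. Exons of the antisense gene IL6-AS1 cover 9.91% of the exon bases of IL6 and those of STEAP1B 1.06%, and the strand setting of the counting is not given in the sources used here. IL6-AS1 itself had 75, 61 and 72 counts in −Dox and 39, 34 and 45 in +Dox. STEAP1B had 2522, 2424 and 2171 counts in −Dox and 1465, 1531 and 1639 in +Dox, more than IL6 and also lower in every +Dox library, and the part of either gene in the IL6 counts was not tested.

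Counts of IL6 were lower in +Dox on the protein-coding transcripts together and on the intron-retaining one, but the protein-coding transcript that held most of them differed between libraries. IL6-208, a transcript with a retained intron, had 68, 98 and 84 counts in −Dox and 12, 27 and 17 in +Dox. IL6-201, a protein-coding transcript, had 171, 163 and 87 counts in −Dox and 0, 0 and 19 in +Dox. In +Dox the protein-coding transcript with the most counts was IL6-204 in replicate 1 (41 counts), IL6-206 in replicate 2 (27 counts) and IL6-209 in replicate 3 (28 counts). With so few counts on overlapping transcripts, no change in the use of transcripts can be read from them, and the gene total is the quantity compared.

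**Figure D2:**
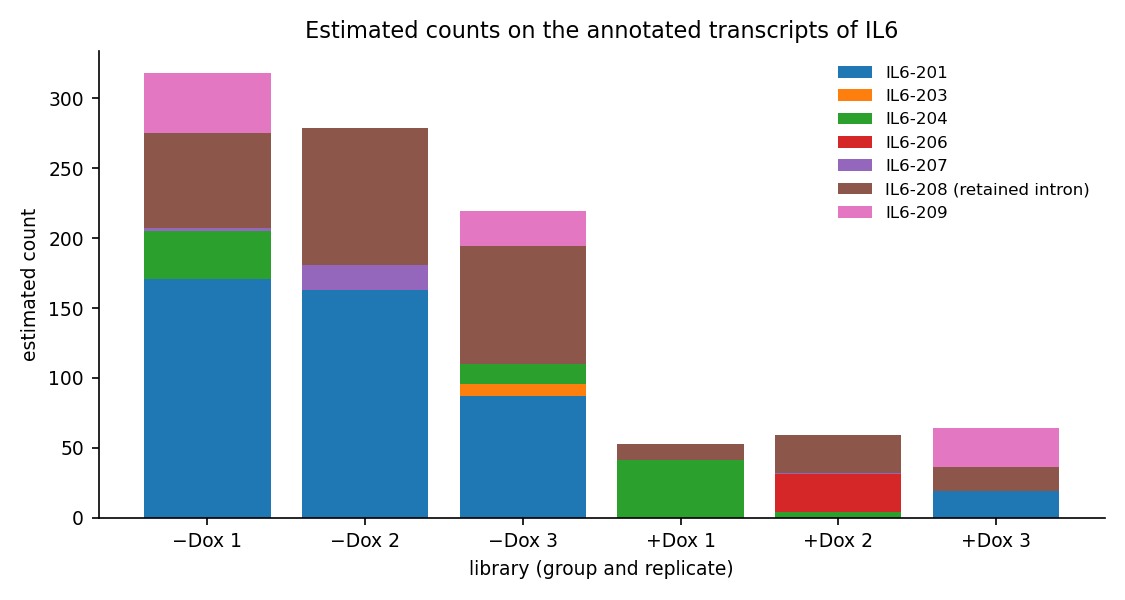
Estimated counts of IL6 (vertical axis) in each library, stacked by annotated transcript. The total falls from 319, 279 and 219 in −Dox to 53, 59 and 64 in +Dox, and the protein-coding transcript with the most counts differs between all 3 +Dox libraries.

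LIF, which signals through LIFR and IL6ST and is best known for its part in embryo implantation and stem cell culture, is on chromosome 22 from 30240453 to 30246759, minus strand. It had 33, 70 and 76 counts in −Dox and 18, 24 and 16 in +Dox, all on the transcript LIF-201. Replicate 1 of −Dox was well below the other −Dox libraries and 1.37-fold above the highest +Dox library, and the groups did not overlap. It changed by −1.64 on the log2 scale (SE 0.42, edgeR adjusted p = 0.0175). The call was lost on leaving out −Dox replicate 2 (edgeR adjusted p = 0.0663), −Dox replicate 3 (0.0887), +Dox replicate 1 (0.0524) or +Dox replicate 3 (0.0713). OSM, the third ligand, which lies beside LIF on chromosome 22 from 30262829 to 30266851, had 4, 0 and 3 counts in −Dox and 0, 6 and 6 in +Dox, and no difference was detectable at this depth (edgeR adjusted p = 0.835 with no filter on counts).

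CXCL8 (interleukin-8), a chemokine that attracts neutrophils, is on chromosome 4 from 73740519 to 73743716, plus strand. It had 225, 302 and 441 counts in −Dox and 67, 78 and 80 in +Dox. The −Dox libraries spread over 2.22-fold in CPM, and the lowest of them was still 2.70-fold above the highest +Dox library. The +Dox libraries spread over 1.07-fold, with a coefficient of variation of 3.37% where counting error alone would give about 11.5%. The mean was 4.15 ± 1.64 CPM in −Dox and 0.951 ± 0.032 CPM in +Dox (SD, n = 3), 4.35-fold lower, or −2.12 on the log2 scale (SE 0.25, edgeR adjusted p = 1.48e-04). The main coding transcript, CXCL8-201, held 80.9% ± 5.4 of the TPM of the gene in −Dox and 79.3% ± 18.4 in +Dox (SD, n = 3).

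CXCL2 and CXCL3, the other neutrophil chemokines with an appreciable level, had smaller log2 fold changes than CXCL8, a difference that was not tested. CXCL2 (chromosome 4, 74097040 to 74099196, minus strand) had 153, 169 and 205 counts in −Dox and 69, 80 and 75 in +Dox. Its log2 fold change was −1.24 (SE 0.21, edgeR adjusted p = 0.00166), from 2.24 ± 0.472 to 0.947 ± 0.0243 CPM (SD, n = 3). CXCL3 (chromosome 4, 74036589 to 74038807, minus strand) had 247, 281 and 300 counts in −Dox and 130, 154 and 159 in +Dox. Its log2 fold change of −0.91 (SE 0.16, edgeR adjusted p = 0.00232) passed the p limit and was short of the fold limit for a DEG. Without −Dox replicate 1 it was −1.03, past that limit.

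CXCL1 (chromosome 4, 73869393 to 73871308, plus strand), the ligand best known as GROα, had 8, 16 and 13 counts in −Dox and 10, 5 and 16 in +Dox, and the groups overlapped. Its log2 fold change was −0.25 (edgeR adjusted p = 0.84), with an interval of −1.58 to 1.07 at 95% confidence, wide enough to hold the changes of CXCL2 and CXCL3. CXCL1, CXCL2 and CXCL3 are close copies, with 90.8% to 94.4% identical coding sequence in pairs. Between 9.57% (CXCL3) and 21.8% (CXCL2) of their 31-base words occur in transcripts of other genes, so reads may be split between them. Counted together, the 3 genes had 408, 466 and 518 counts in −Dox and 209, 239 and 250 in +Dox, a log2 fold change of −1.0 (SE 0.143, edgeR adjusted p = 5.17e-04).

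CSF1, the growth factor of monocytes and macrophages, is on chromosome 1 from 109910242 to 109930992, plus strand, and took the most counts of the 10 genes. It had 460, 531 and 491 counts in −Dox and 355, 426 and 383 in +Dox. In CPM the groups did not overlap, by a margin of 1.08-fold. It changed by −0.35 on the log2 scale (SE 0.11), with an interval of −0.60 to −0.10 at 95% confidence, and it did not pass (edgeR adjusted p = 0.0569). It passed with DESeq2 (adjusted p = 0.0311), with a filter of 10 counts in every library (0.0443) and without −Dox replicate 1 (0.0164). The transcript CSF1-201 held 64.2% ± 13.9 of the TPM of the gene in −Dox and 77.9% ± 2.24 in +Dox (SD, n = 3).

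TNF and IL1B, the classical early cytokines of activated macrophages, were close to absent. TNF (chromosome 6, 31575565 to 31578336, plus strand) had 1, 3 and 5 counts in −Dox and 0 in each +Dox library. With no filter on counts TNF did not pass (edgeR adjusted p = 0.225), and the comparison rests on 9 counts in all. IL1B (chromosome 2, 112829751 to 112836816, minus strand) had 8, 4 and 0 counts in −Dox and 0, 15 and 5 in +Dox, with the groups overlapping (edgeR adjusted p = 0.779 with no filter on counts).

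**Figure D3:**
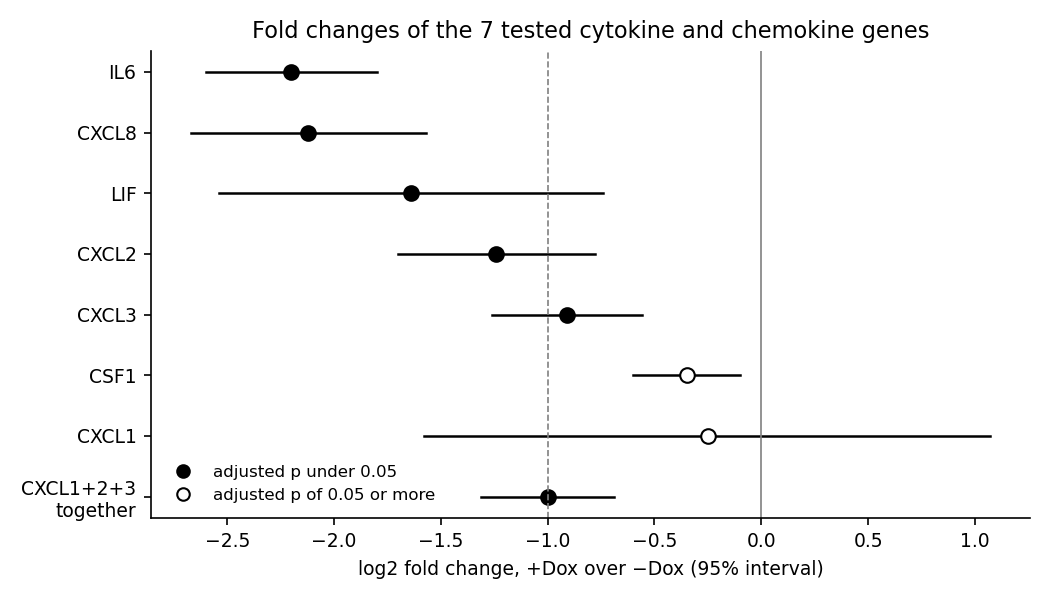
Log2 fold change of +Dox over −Dox (horizontal axis) for the 7 tested genes and for CXCL1, CXCL2 and CXCL3 counted together, with 95% intervals from the edgeR fit. Filled points passed an adjusted p of 0.05, and the dashed line marks a log2 fold change of −1. IL6 at −2.20 and CXCL8 at −2.12 lie farthest from 0, and the interval of CXCL1 spans 0.

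The chemokine genes lie in one region of chromosome 4, next to genes for ligands of the EGF receptor. Of 15 genes of the region, 9 were tested. Outside the 4 chemokine genes already described 5 were tested, and 2 of them, AREG and EREG, passed as lower, beside 7.68% of all genes. AREG (amphiregulin) had 2.97, 2.90 and 4.60 CPM in −Dox and 2.20, 2.03 and 2.02 CPM in +Dox, a log2 fold change of −0.74 (edgeR adjusted p = 0.0181). EREG (epiregulin) had 2.91, 1.96 and 1.98 CPM in −Dox and 1.31, 1.28 and 1.56 CPM in +Dox, a log2 fold change of −0.72 (edgeR adjusted p = 0.0321). In neither gene did the groups overlap, as in 15.8% of all genes that were lower without overlap. The call of AREG was lost in 3 and that of EREG in 4 of the 6 fits that left out a library. Both were lost with a transcript length offset, and that of EREG also with the replicate number as a term (edgeR adjusted p = 0.0546). EPGN (epigen), beside them, did not pass (log2 fold change −0.46, edgeR adjusted p = 0.413).

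The region also held genes that did not go the same way. MTHFD2L, an enzyme of mitochondrial folate metabolism that lies between CXCL2 and EPGN, had a log2 fold change of −0.01 (SE 0.054, edgeR adjusted p = 0.965) at a mean of 25.5 TPM in −Dox. RASSF6, on the other side of CXCL8, was at 0.82 (edgeR adjusted p = 0.0561), and passed as higher with DESeq2 (adjusted p = 0.0319) and with a filter of 10 counts in every library (0.0419). CXCL5, CXCL6, PF4, PF4V1 and BTC had 0 counts in all 6 libraries, and PPBP had at most 7. Around LIF and OSM on chromosome 22, 6 of 10 genes were tested, and MTMR3 (log2 fold change 0.21, edgeR adjusted p = 0.0465) passed as higher beside LIF as lower, and MTMR3 lost its call under 12 of the 14 alternatives. ASCC2, TBC1D10A, SF3A1 and CASTOR1 did not pass, with log2 fold changes of 0.16, −0.15, −0.02 and 0.18, and LIF-AS2, HORMAD2 and HORMAD2-AS1 had at most 4 counts in a library.

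**Figure D4:**
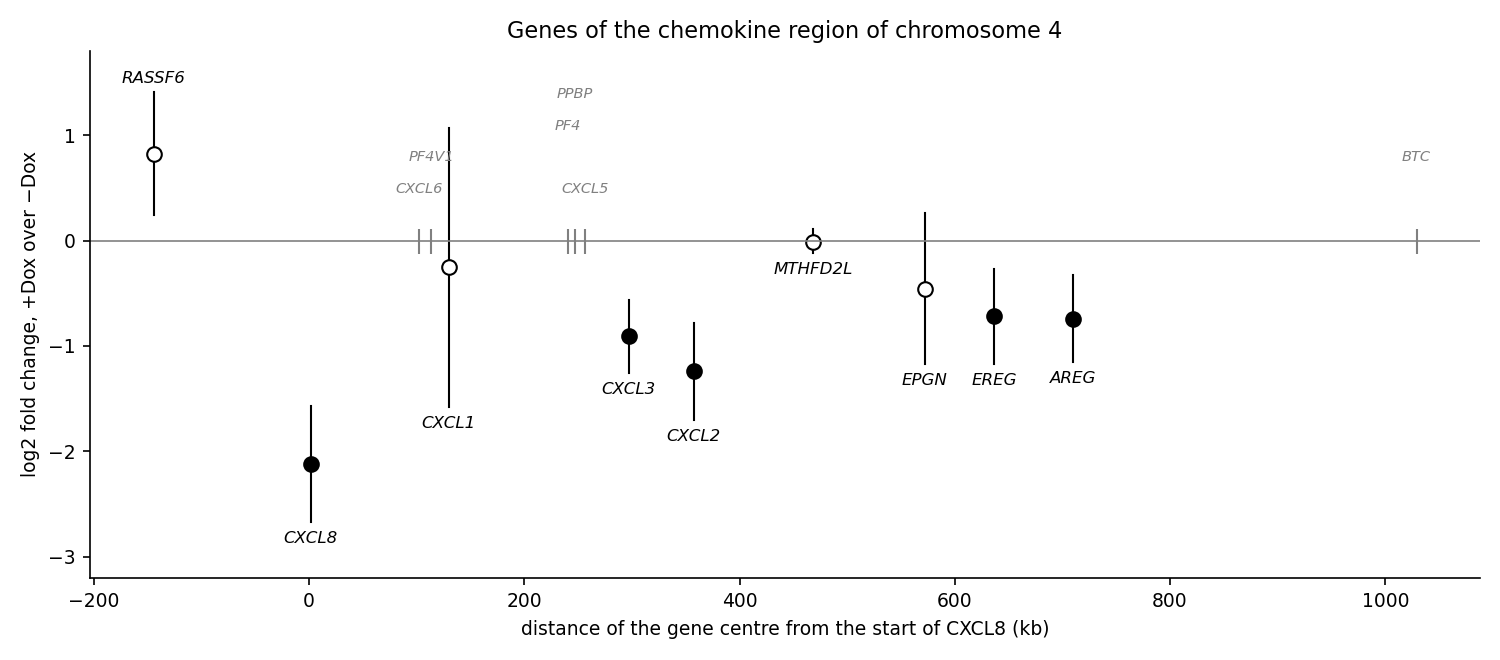
Log2 fold change of +Dox over −Dox with its 95% interval (vertical axis) against the distance in kb from the start of CXCL8 (horizontal axis) for 15 genes of chromosome 4. Filled points passed an adjusted p of 0.05, and grey ticks mark the 6 genes with too few counts to test. The filled points (CXCL8, CXCL3, CXCL2, EREG and AREG) are all below 0, with MTHFD2L, at −0.01, between CXCL2 and EREG.

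Other secreted ligands of the same families were read against the 15.8% of all genes that passed. Of 7 other interleukin-6 family genes 5 were tested and none passed by edgeR, with 3 at an unadjusted p under 0.05 and 1 by DESeq2, and a median log2 fold change of −0.05. IL11 had 36, 21 and 25 counts in −Dox and 15, 13 and 7 in +Dox, a log2 fold change of −1.19 (edgeR adjusted p = 0.137). CNTF was at −0.71 (edgeR adjusted p = 0.0596) and passed as lower under 6 of the 14 alternatives, among them DESeq2 (adjusted p = 0.0159) and the replicate block (edgeR adjusted p = 0.0259). CTF1 was at 0.53 (edgeR adjusted p = 0.136). Of 42 other chemokine ligands 19 had 0 counts in every library and 7 were tested. None of the 7 passed by edgeR or by DESeq2, or had an unadjusted p under 0.05, and their median was 0.09. CCL24, CXCL11, CCL22, CCL26 and CXCL16 had log2 fold changes of −0.46, 0.54, −0.62, 0.23 and 0.45.

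IL18, an interleukin-1 family cytokine, was the single gene to pass among 22 tested of 58 other interleukins, colony-stimulating factors and TNF family ligands, and it rose. It had 4.62, 4.44 and 5.98 CPM in −Dox and 8.54, 7.13 and 9.66 CPM in +Dox (log2 fold change 0.75, edgeR adjusted p = 0.00283). IL17D passed as lower with no count filter (−1.23, edgeR adjusted p = 0.0419) and without +Dox replicate 1 (−2.56, edgeR adjusted p = 0.0264). The median of the 22 was 0.12. IL23A (0.46), FLT3LG (0.44), IL15 (0.33) and TNFSF15 (−1.10) had the next smallest p and did not pass.

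Among 13 receptors and receptor chains of the 10 ligands, 8 were tested and 3 passed, all lower, beside the 7.68% of all genes, and the median was −0.09. TNFRSF1A, the main TNF receptor, had 24.9, 23.3 and 28.7 CPM in −Dox and 16.1, 15.7 and 15.8 CPM in +Dox (log2 fold change −0.69, edgeR adjusted p = 7.9e-05). IL1RAP, the shared chain of the IL-1 receptor, fell by 0.68 and LIFR, the LIF receptor, by 0.36 on the log2 scale (edgeR adjusted p = 0.0017 and 0.00124). With a transcript length offset IL1RAP was at −0.36 and did not pass (edgeR adjusted p = 0.222). IL6ST, the gp130 chain, was at a log2 fold change of 0.00 with 5929 to 8145 counts in a library. OSMR was at −0.17 and IL6R at 0.73 without passing, and IL6R had between 5 and 30 counts. CXCR1, CXCR2 and CSF1R, the receptors of the CXC chemokines and of CSF-1, had at most 4, 3 and 11 counts in a library.

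Of 24 genes in a list of transcription factors known to act on inflammatory cytokine genes, which also holds NFKBIA, an inhibitor of NF-κB (−0.17, edgeR adjusted p = 0.21), all were tested, and 10 passed as lower and 2 as higher, beside 7.68% and 8.16% of all genes, with a median of −0.14. Those passing as lower numbered 6 without −Dox replicate 3, without +Dox replicate 2 or with a transcript length offset. ATF3, a stress-induced factor that can pair with AP-1 subunits, had 15.8, 8.31 and 10.9 CPM in −Dox and 6.24, 6.52 and 6.15 CPM in +Dox (log2 fold change −0.89, edgeR adjusted p = 0.00433). FOSL2 (−0.97) and FOSL1 (−0.46), both AP-1 subunits, and NFKB2 (−0.40), an NF-κB subunit, also fell, and the call of NFKB2 was lost with protein_coding transcripts only (edgeR adjusted p = 0.077). NFATC2 (0.48) and the AP-1 subunit JUN (0.26) rose, and the call of JUN was lost without −Dox replicate 3 (edgeR adjusted p = 0.0531). RELA and NFKB1, the subunits of the common NF-κB dimer, were at 0.05 and −0.10 and did not pass (edgeR adjusted p = 0.662 and 0.346).

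Factors that set the decay of AU-rich mRNA passed about as often as all genes. Of 19, all tested, 2 passed as lower and 1 as higher, beside 7.68% and 8.16% of all genes, with a median of −0.03. ZC3H12C, an RNase of the regnase family, fell by 0.72 and ZFP36L2, which promotes decay, by 0.46 on the log2 scale (edgeR adjusted p = 1.68e-04 and 5.62e-04), and CPEB1 rose by 0.37, a call lost with a transcript length offset (edgeR adjusted p = 0.101). ZFP36 itself (tristetraprolin) was at 0.04 and ZC3H12A (regnase-1) at −0.15, and neither passed. Of 10 genes for processing or shedding of the ligands 7 were tested and none passed by edgeR or by DESeq2, or had an unadjusted p under 0.05, with a median of 0.02. Among these ADAM17, the protease that releases TNF, was at −0.08.

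**Figure D5:**
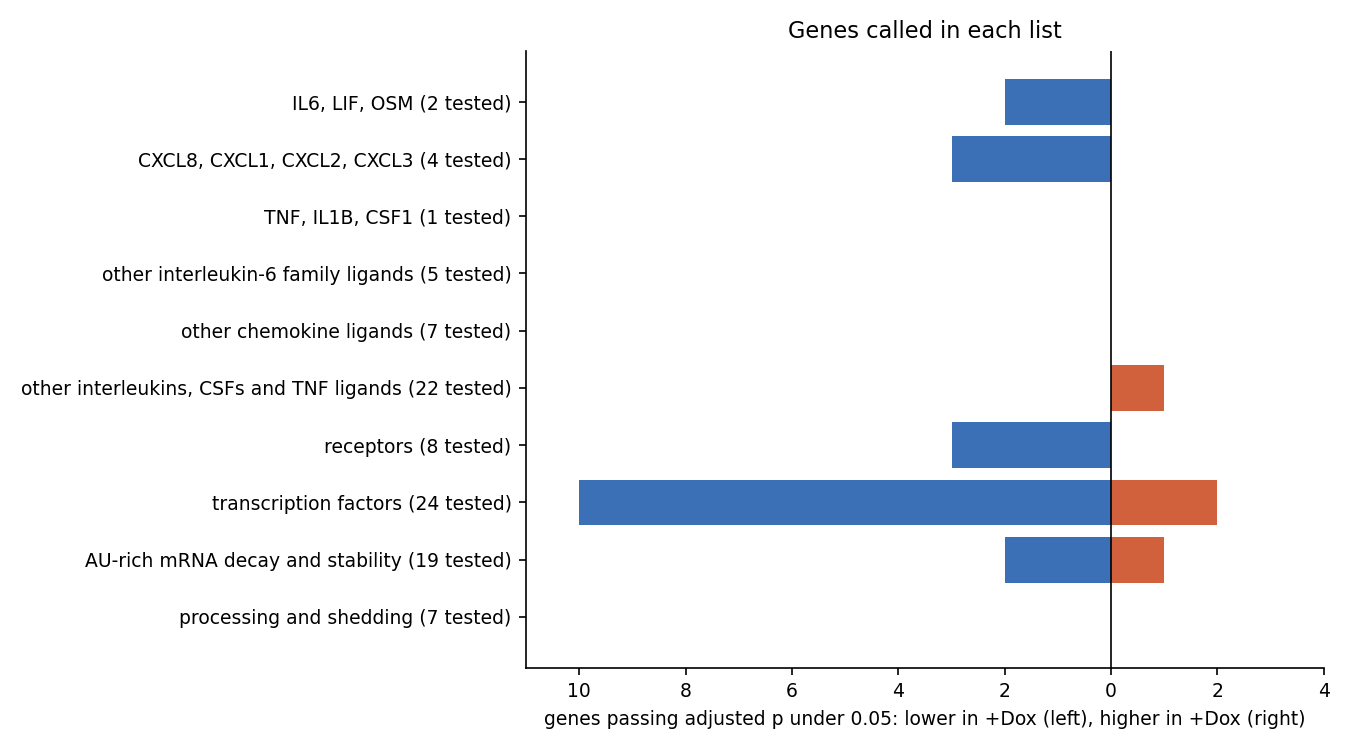
Number of genes that passed an adjusted p of 0.05 in each list (horizontal axis), lower in +Dox to the left and higher to the right, with the number tested beside each name. The list of transcription factors, which includes the inhibitor NFKBIA, had 10 lower and 2 higher of 24, and receptors 3 lower of 8.

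Markers of cells that could add cytokine mRNA were read alongside. Of 14 monocyte and macrophage markers 5 were tested, and CD68 (log2 fold change −0.62) and LYZ (−0.47) passed as lower and AIF1 (0.47) as higher, beside 7.68% and 8.16% of all genes. AIF1 lost its call without +Dox replicate 3 (edgeR adjusted p = 0.0752), where SPI1, a myeloid transcription factor, passed as lower (−0.33, edgeR adjusted p = 0.045), as it also did with no count filter (−0.23, edgeR adjusted p = 0.0361). The summed level of the list was 145, 163 and 187 TPM in −Dox and 128, 131 and 147 TPM in +Dox, and LYZ was its most abundant gene, at 95 TPM. SPI1 was at 15.2 TPM in −Dox and 12.8 TPM in +Dox, and ITGAM had 23 to 45 counts in a library. The other 9 markers, CD14, FCGR1A, CSF1R, CD163 and CD86 among them, had at most 28 counts in a library. LYZ was lowest in replicate 1 and highest in replicate 3 of −Dox, the order of CXCL8, CXCL2, CXCL3 and LIF. CD68 was not in that order, with 16.6, 17.9 and 16.3 CPM in −Dox replicates 1 to 3. The part of either marker in these results was not tested.

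Of the other cell types, 4 neutrophil, 6 lymphocyte, 3 fibroblast and 3 endothelial markers were tested, and none passed by edgeR or by DESeq2. At an unadjusted p under 0.05 there was 1, the endothelial marker PECAM1, at a log2 fold change of 0.24. The most abundant gene was AZU1 (1.28 TPM) of the neutrophil list, CD3D (47.1 TPM) of the lymphocyte list, COL1A1 (0.502 TPM) of the fibroblast list and PECAM1 (1.52 TPM) of the endothelial list. Of 5 megakaryocyte markers tested TUBB1 (0.95) passed as higher and GP6 (−0.75) as lower, beside 8.16% of all genes higher and 7.68% lower. With protein_coding transcripts only ITGA2B also passed as higher (0.43, edgeR adjusted p = 0.00847). Of all 14 markers of K562 and red cells, each tested, 4 passed as higher and 3 as lower, beside the same shares of all genes. LMO2, 1 of the 3 lower, lost its call with the replicate block and in 4 fits that left out a library (edgeR adjusted p = 0.0599 to 0.0995), and HBA2 passed as lower under 3 alternatives.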

How the data were processed

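The authors sequenced polyA RNA as paired reads of 150 cycles and quantified it with Salmon 1.10.2 on hg38, per the labels and the submitters' processing notes. The deposited values are estimated counts per transcript, not scaled, and TPM, which the authors' software scaled by effective length to the same sum in each library. No replicates were pooled by the authors. The Salmon index, strand and bias settings are not given in the sources used here.

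Of 252045 transcripts, 251612 were matched to GENCODE 44 (version ignored), and 433 were not, with 0.125% to 0.138% of counts. Estimated counts were summed for 62252 genes and rounded. Genes with a mean count above 10 were fitted with edgeR 4.0.16 (TMM, glmQLFit and glmQLFTest) in R 4.3.3. DEGs had an adjusted p under 0.05 and a log2 fold change above 1 in size, the limits of the study, whose tool DESeq2 (here 1.42.0) was an alternative. The standard error is the log2 fold change over the square root of F. Intervals and floors cover these libraries and counting error only. The fit was checked on simulated counts, where edgeR recovered 95.5% of the genes changed by 1 on the log2 scale. Changes were placed only in genes of higher counts and were never below 1 in size. The check thus does not cover the counts of LIF and CXCL1 or the changes of CXCL3 and CSF1. Replicates of a group differed by more than counting noise (chi-square of 8.16 to 17.5 per gene).

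The 14 alternatives were DESeq2, DESeq2 size factors (RLE) in edgeR, no count filter, a summed count above 10, at least 10 counts in every library, a transcript length offset, protein_coding transcripts only, each of 6 libraries left out and the replicate number as a term. The genes and lists were chosen with earlier results of these data known, so their counts are descriptions. The genes named are the 10 genes, PCBP1, up to 5 genes by p of each list, all genes of both chromosome lists, and the 3 genes most like IL6 and CXCL8. Not every such gene of the marker lists is reported here. Others were named after their values were seen: IL6ST, CXCR1, CXCR2, CSF1R, CD14, FCGR1A, CD163, CD86, JUN, RELA, NFKB1, NFKBIA, CEBPG, FOSB, HBG2, HBA2, LMO2, ZFP36, ZC3H12A, IL17D, IL6-AS1 and STEAP1B. AU-rich windows were read from the GENCODE 44 sequence of the MANE transcript, with positions on GRCh38. Python 3.11.15 with pandas 2.3.3, numpy 2.4.6, scipy 1.17.1 and biopython 1.88 made the tables, and matplotlib 3.10.9 the figures.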

Additional observations from a re-analysis of the deposited data

How the results depend on the processing

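Of 97 values of the log2 fold change of the 7 tested genes under the 14 alternatives, 89 kept their direction and side of the threshold. Among the 89 is CXCL1 with DESeq2, which had no adjusted p and was taken as not passing. IL6 stayed between −2.32 and −2.13 and CXCL8 between −2.36 and −1.78. CXCL1 turned to 0.11 without +Dox replicate 2 and lay between −0.67 and 0.11 over the fits that left out a library. LIF lost its call in 4 fits that left out a library, and over the 6 such fits lay between −1.96 and −1.39. CSF1 passed at −0.36 with DESeq2 and at −0.36 with at least 10 counts in every library, and over the fits that left out a library lay between −0.45 (without −Dox replicate 1, which passed) and −0.29, and with a transcript length offset it was at −0.61 without passing (edgeR adjusted p = 0.0631). The genes that passed among the 10 numbered 4 to 6 and the DEGs among them 3 to 5 on leaving out a library, and over all genes 2267 to 3313 passed and 231 to 313 were DEGs.

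Over all genes, DEGs numbered 308, 515 with no count filter and 172 with protein_coding transcripts only, and 1859 genes in place of 3333 passed with a transcript length offset. With no count filter, 1 other interleukin-6 family gene (CNTF), 2 of the other interleukins and TNF family ligands and 1 gene of the chromosome 22 region (LIF itself, with MTMR3 lost) passed, in place of 0, 1 and 2, and CNTF was the 1 other interleukin-6 family gene that passed with DESeq2. With protein_coding transcripts only the TPM of CXCL2 differed between groups by −1.112 in place of −2.024 and that of CXCL3 by −0.967 in place of −1.751. The cause of these changes was not tested.

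Replicate numbers shared by the groups showed no pairing over all genes tested. The deviations of same-numbered libraries correlated at 0.008, −0.06 and −0.003. A batch that acts on a small part of the genes could be missed by these values. With the replicate block 2490 genes passed and 298 were DEGs, 5 and 4 of them among the 10 genes, the 3 CXCL genes together were at −0.99, 1 other interleukin-6 family gene (CNTF) passed, and of the chromosome 22 region 1 gene did, LIF itself, with MTMR3 lost. The chromosome 4 region had 4 calls in place of 5, with EREG lost, and the list of transcription factors 8 lower in place of 10, with CEBPG and FOSB lost, and LMO2 lost its call among the markers of K562 and red cells (edgeR adjusted p = 0.0658). The low counts limit what can be seen: at 5 to 16 counts per library CXCL1 could have changed as much as CXCL2 and CXCL3 did, and OSM, TNF and IL1B, tested only without a filter at a mean above 10, did not pass (edgeR adjusted p = 0.835, 0.225 and 0.779).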

Other observations

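For the 5 genes that passed, the −Dox libraries spread over a wider range than the +Dox libraries. For CXCL8, CXCL2, CXCL3, LIF and TNF, −Dox replicate 1 was the lowest and −Dox replicate 3 the highest in CPM, with TNF at only 1, 3 and 5 counts. For IL6, and for IL1B at 8, 4 and 0 counts, the order was the reverse. In CXCL1 and CSF1 −Dox replicate 1 was the lowest and replicate 2 the highest. In OSM −Dox replicate 2 was the lowest and replicate 1 the highest. The highest −Dox library was above the lowest by 2.61-fold for LIF, 2.22-fold for CXCL8, 1.52-fold for CXCL2, 1.38-fold for CXCL3 and 1.29-fold for IL6. In +Dox the same ratios were 1.44, 1.07, 1.05, 1.08 and 1.13. The coefficient of variation of these 5 genes in +Dox was below what counting error alone would give, as in CXCL2 (2.57% against about 11.6%). So close a spread cannot be read as a trait of the group, and the difference in spread was not tested. The order of the −Dox libraries is given as a description, with 3 libraries and no test.

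The genes whose log2 CPM followed CXCL8 most closely over the 6 libraries, among 11612 protein-coding genes with a mean of at least 1 CPM, were ZFP36L2 (Pearson r = 0.9983), CXCL2 (0.9979) and GATA2 (0.9975), with CXCL3 ranking 4. ZFP36L2 had 41.8, 46.2 and 50.5 CPM in −Dox and 33.2, 33.9 and 33.6 CPM in +Dox. Those most like IL6 were TAF1C (0.9971), ZNF587B (0.9970) and CSNK2A1 (0.9970), whose log2 fold changes were −0.22, −0.17 and −0.22. Between IL6 and CXCL8 r was 0.92. These values share the difference between the groups and are a description of 6 libraries.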
